A study of Mus musculus with 10 samples.

Results

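The 8 genes described here are Trem2, Apoe, Gpnmb, Lgals3, Cd9, Spp1, Fn1 and Thbs1, which are used as labels of lipid-associated and matrix-producing macrophages in tumours. They were taken by name, 8 of the 32285 genes in the count matrices, and all 8 were measured. Livers holding metastases of colorectal cancer were digested, and viable single cells were profiled by droplet RNA sequencing, which counts unique molecular identifiers (UMIs), 1 for each captured RNA molecule. The Control group was 2 livers (11 and 25) of mice given a control LV, a lentiviral vector. The IFNa group was 2 livers (18 and 23) of mice given an LV for IFNa, a type I interferon. The IFNa + aCTLA4 group, hereafter the combination, was 1 liver (22) of a mouse given IFNa and anti-CTLA-4, an antibody that blocks a brake on T cells. Every group had therefore been treated, and no untreated liver was analysed here. The title of the series speaks of engineering macrophages in vivo, but the cells in which the vector is active, the strain and age of the mice, and whether any 2 livers share a mouse are not given in the sources used here. The p-values reflect the spread of these samples alone, which may be technical, and the combination has 1 liver, which the model assumes to vary like the others.

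TREM2 is a surface receptor of macrophages that binds lipids and lipoproteins and signals through the adaptor TYROBP. Macrophages that take up much lipid in fat, in atherosclerotic arteries, in injured liver and in tumours are known to carry TREM2 together with the lipoprotein component APOE, the lysosomal glycoprotein GPNMB, the tetraspanin CD9 and the lectin galectin-3 (Lgals3). Osteopontin (Spp1), fibronectin (Fn1) and thrombospondin-1 (Thbs1) are secreted proteins of the extracellular matrix that bind integrins, and the first is a common label of matrix-associated tumour macrophages. Monocytes are the blood-borne cells from which many of the macrophages of a tumour descend.

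The 5 libraries held 863 to 9605 barcodes and 10464216 to 69856071 UMIs, and 26216 cells were kept. Control 25 was the smallest in both. Cells were gated one by one on marker genes that include none of the 8. The classical monocyte gate (Ccr2, F13a1, Vcan, Chil3, Hp and Ly6c2) held 1582 and 202 cells in the Control livers, 1231 and 696 with IFNa and 537 in the combination. The macrophage gate (C1qa, C1qb, C1qc, Ms4a7 and Adgre1) held 326 and 47, 222 and 507, and 126 cells. The summed macrophage markers stood at 6831 to 8925 CPM (the UMIs of a gene for each 1000000 UMIs of that class in that liver) in the macrophage gate. Cells entered the gate by these same genes, so the sums do not test its identity. Only 5 cells passed the gate of Kupffer cells, the resident macrophages of the liver. In the macrophage gate the Kupffer markers summed to 32.3 to 34.1 CPM in Control, 13.8 to 123 with IFNa and 147 in the combination. The label of tumour macrophage was not checked, because genes that separate macrophages of the metastasis from those of the surrounding liver were not searched for. Type I interferon genes moved with the treatment labels. All 8 of a reference list, such as Isg15 and Ifi44, were higher than in Control in both gates with IFNa and in the combination (edgeR, adjusted p under 0.05 for each). DESeq2, another test on the same sums, called 8 and 8 of them in monocytes and 7 and 6 in macrophages.

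The 8 genes lie on 7 chromosomes of the mouse genome (GRCm38). Each is protein-coding: Trem2 at chr17:48346401-48354147, Spp1 at chr5:104435118-104441050, Gpnmb at chr6:49036546-49070929, Thbs1 at chr2:118111876-118127133 and Lgals3 at chr14:47367751-47386160 on the plus strand, and Apoe at chr7:19696109-19699188, Fn1 at chr1:71585520-71653200 and Cd9 at chr6:125460266-125494791 on the minus strand. RefSeq promoter windows (GRCm38.p6, 300 bases) were matched for 6 of the 8 genes, with 9 windows in all, and were searched on both strands for 3 motifs: the interferon-stimulated response element (GAAANNGAAA), the AP-1 site (TGANTCA) and the E-box (CACGTG) of lysosomal gene regulators. The 3 windows with a match are shown to place the matched letters, in capitals, against the start site. Trem2 and Spp1 among them differ between treatments, whereas Gpnmb passed edgeR in no treatment comparison as fitted here.
Trem2, chr17:48346151-48346450, plus strand, AP-1: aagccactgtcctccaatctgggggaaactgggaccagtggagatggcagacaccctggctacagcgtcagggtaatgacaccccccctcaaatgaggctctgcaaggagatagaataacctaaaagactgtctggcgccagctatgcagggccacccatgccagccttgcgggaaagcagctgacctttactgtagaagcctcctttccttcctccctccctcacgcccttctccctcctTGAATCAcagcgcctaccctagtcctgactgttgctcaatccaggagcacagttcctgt
Gpnmb, chr6:49036268-49036567, plus strand, AP-1: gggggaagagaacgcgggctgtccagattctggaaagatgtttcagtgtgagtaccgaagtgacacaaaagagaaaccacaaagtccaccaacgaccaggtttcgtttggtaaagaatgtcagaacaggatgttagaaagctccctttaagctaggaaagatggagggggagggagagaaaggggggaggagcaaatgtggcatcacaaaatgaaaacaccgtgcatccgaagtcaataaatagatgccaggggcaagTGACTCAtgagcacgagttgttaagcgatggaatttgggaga
Spp1, chr5:104434861-104435160, plus strand, interferon-stimulated response element on the minus strand: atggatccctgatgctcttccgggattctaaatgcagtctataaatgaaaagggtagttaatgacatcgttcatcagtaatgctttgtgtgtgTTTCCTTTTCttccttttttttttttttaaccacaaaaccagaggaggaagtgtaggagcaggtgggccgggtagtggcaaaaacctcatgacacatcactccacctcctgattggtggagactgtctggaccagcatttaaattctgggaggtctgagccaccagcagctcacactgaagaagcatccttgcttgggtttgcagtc
The AP-1 letters began at -9 from the Trem2 start site and at 8 from that of Gpnmb. They were searched with any base at their centre, which was A for Trem2 and C for Gpnmb. The interferon-stimulated letters began at -157 from the Spp1 start site. Of 32851 promoters of this length, 7.81% held the AP-1 letters, 3.44% the interferon-stimulated letters and 7.15% the E-box, which none of the 9 windows held. The motifs do not overlap each other in these windows, and a match is a run of letters, not a shown site of binding.

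In the Control livers, Apoe, Trem2 and Thbs1 were highest in the macrophage gate, Lgals3 in classical monocytes and Cd9 in neutrophils, while Fn1 was shared by monocytes and macrophages. These orders run over gates with at least 20 cells in both livers and are a description, with no test. Apoe was 8789 ± 51 CPM (SD, n = 2) in macrophages, followed by 1229 ± 232 in classical monocytes and 426 ± 127 in B cells, with no overlap between neighbours. Trem2 was 199 ± 17.7 CPM in macrophages and 124 ± 33.3 in classical monocytes, and the next gate, B cells, was at 5.88 ± 5.77. Trem2 thus marked the 2 phagocyte gates and little else in this order. Non-classical monocytes, the patrolling monocytes of blood, were too few in Control 25 (19 cells) to be ranked, and Trem2 there stood at 120 and 72.5 CPM in the Control livers. Their Apoe was 1594 CPM in Control 11, above classical monocytes in both Control livers. Immature neutrophils, also unranked (11 cells in Control 25), had Apoe at 590 and 369 CPM, which overlapped B cells.

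**Figure D1:**
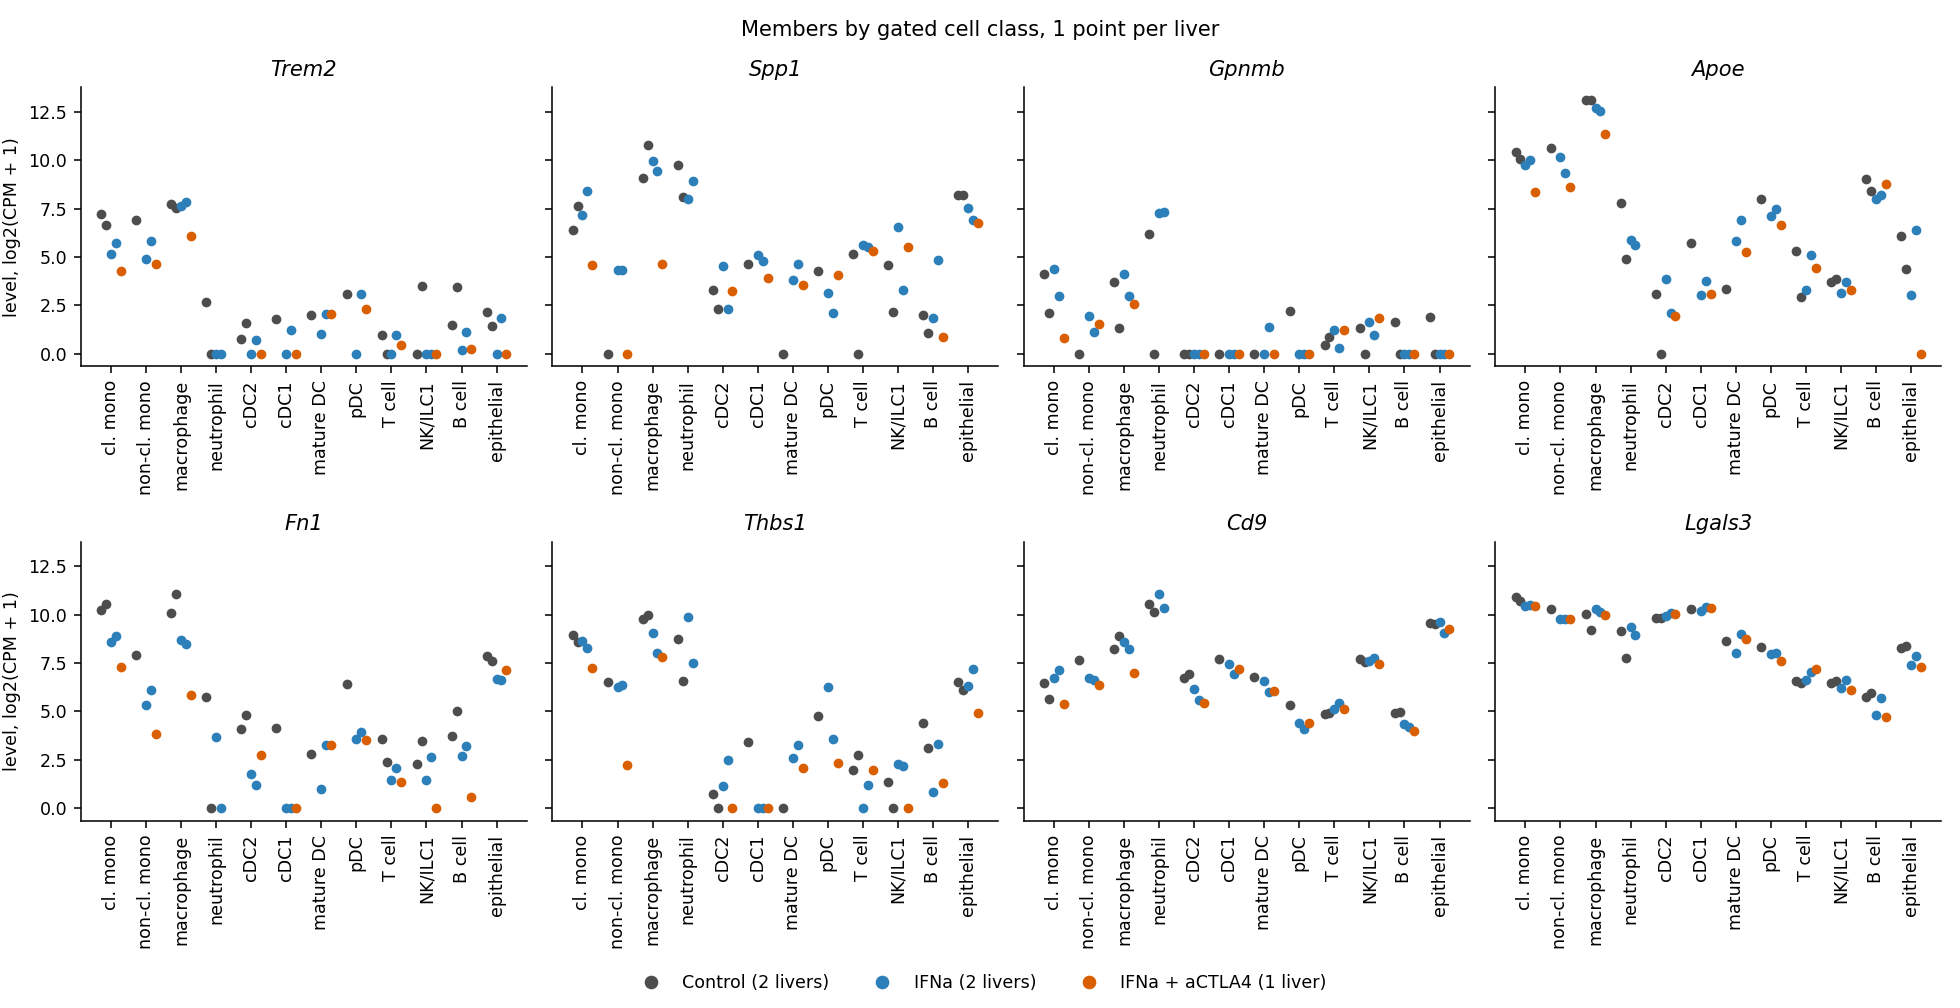
Level of each of the 8 genes, as log2(CPM + 1), in 12 gated cell classes, with 1 point for each liver in which the class had at least 20 cells. Control points are grey, IFNa points blue and the combination orange. Apoe and Trem2 stand highest in macrophages and monocytes, Cd9 in neutrophils and epithelial cells.

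The secreted matrix genes were not restricted to phagocytes of the monocyte line. Fn1 was 1607 ± 736 CPM in macrophages and 1368 ± 202 in classical monocytes of the Control livers, 2 ranges that overlap, and epithelial cells (bile duct or tumour, which the markers do not separate) followed at 210 ± 25.5. Thbs1 was 933 ± 93.9 CPM in macrophages, above classical monocytes at 439 ± 74.3, which overlapped neutrophils at 264 ± 239. Spp1 was 1149 ± 873 CPM in macrophages, 568 ± 413 in neutrophils and 297 ± 0.235 in epithelial cells, each overlapping the next. Classical monocytes followed for Spp1 at 139 ± 79.9, under the range of those 3 gates. For osteopontin the macrophage value rests on the 2 livers apart: 532 CPM in Control 11 and 1766 in Control 25.

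Lgals3 and Cd9 had other leading cells. Lgals3 was 1784 ± 155 CPM in classical monocytes, above type 2 conventional dendritic cells (cDC2, which present antigen to CD4 T cells) at 909 ± 8.74, and these overlapped macrophages at 811 ± 322. Type 1 conventional dendritic cells, unranked with 5 cells in Control 25, had Lgals3 at 1253 and 1158 CPM in the Control livers, above cDC2. Cd9 was 1310 ± 259 CPM in neutrophils, 747 ± 20.1 in epithelial cells, 387 ± 121 in macrophages and 198 ± 16.9 in natural killer cells or ILC1 (innate lymphocytes of the liver). Neighbours among these ranked gates did not overlap. Gpnmb was low everywhere: neutrophils at 36.2 ± 51.1, classical monocytes at 9.70 ± 9.13 and macrophages at 6.88 ± 7.56 CPM overlapped. The neutrophil UMIs came from 7 of 250 cells in Control 11, and Control 25 had 0. In the macrophage gate Gpnmb gave 48 and 1 UMIs in the Control livers, 41 and 45 with IFNa and 7 in the combination, which leaves its differences poorly measured.

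In the IFNa livers the order or spacing of Trem2, Fn1, Thbs1, Spp1 and Lgals3 differed from Control, again as a description. Trem2 in macrophages (210 ± 23.3 CPM) was followed by classical monocytes at 42.5 ± 11.9, which overlapped non-classical monocytes at 42.3 ± 18.9. The classical and non-classical gates also overlapped in the Control livers, where the non-classical gate was not ranked. Fn1 in classical monocytes (432 ± 60.9) overlapped that in macrophages (379 ± 35.3), as in Control, but with monocytes first. Thbs1 in macrophages (393 ± 185) overlapped both neutrophils (553 ± 523) and classical monocytes (354 ± 69.3). For Spp1, classical monocytes overlapped epithelial cells, which stood above them in Control. Lgals3 in macrophages (1259 and 1116 CPM) lay above that in cDC2 (972 and 1084 CPM), whereas these gates overlapped in Control. Apoe kept macrophages first at 6383 ± 477 CPM, and Cd9 kept neutrophils first at 1707 ± 605.

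IFNa against Control in classical monocytes asks what the interferon vector changed in these cells. Trem2 and Fn1 fell, 2 of the 8 genes, and no member rose, against 3.77% of 12263 tested genes called lower (edgeR quasi-likelihood test on UMIs summed per liver, adjusted p under 0.05). Trem2 stood at 147 and 100.01 CPM in Control 11 and 25, 34.1 and 50.9 with IFNa (18 and 23) and 18.6 in the combination. Both IFNa livers and the combination lay below both Control livers. Trem2 fell by 1.56 ± 0.24 in log2 units (SE; edgeR adjusted p = 0.00809), a 2.94-fold lower level. Without Control 11 the difference was -1.21 with an edgeR adjusted p = 0.0815. The share of monocytes with a Trem2 UMI was 65.7% and 58.4% in the Control livers, 19.0% and 26.1% with IFNa and 11.4% in the combination, at median depths of 8815 to 14884 UMIs per cell. Thinned to 2000 UMIs per cell, those shares were 22.7% and 13.9%, 5.90% and 8.92%, and 2.97%. In T cells, which should lack the gene, 0 to 0.616% of cells had a Trem2 UMI at median depths of 5479 to 7079 UMIs.

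Fn1, which encodes fibronectin, was 1225 and 1511 CPM in the classical monocytes of Control 11 and 25, 389 and 475 with IFNa (18 and 23) and 154 in the combination. The 3 groups did not overlap. Fn1 fell by 1.64 ± 0.17 with IFNa (edgeR adjusted p = 0.00136), 3.12-fold, and the call held in 14 of 14 alternative analyses. A Fn1 UMI was found in 93.5% and 94.6% of Control monocytes and in 56.4% and 66.5% of IFNa monocytes, against 0.725% to 3.11% of T cells.

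The other 6 genes did not pass in that comparison. Apoe stood at 1393 and 1065 CPM in Control and 847 and 1019 in IFNa (log2 difference -0.38, edgeR adjusted p = 0.237). Lgals3 stood at 1894 and 1674 against 1412 and 1444 (-0.30, edgeR adjusted p = 0.232), and Thbs1 at 492 and 387 against 403 and 305 (-0.30, edgeR adjusted p = 0.368). For Lgals3 the 2 groups did not overlap, and for Thbs1 they did. Cd9 stood at 86.2 and 49.2 CPM against 105 and 140 (0.81, edgeR adjusted p = 0.0907), and DESeq2 called it higher (0.84). Spp1 was 82.8 and 196 against 145 and 344 (0.87, edgeR adjusted p = 0.29), with overlapping groups. Gpnmb was 16.2 and 3.24 against 19.9 and 6.93 (0.26, edgeR adjusted p = 0.832). The median log2 difference was -0.30 over the 8 genes and 0.0031 over all tested genes.

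Marker sums moved beside these results. In the classical monocyte gate the monocyte markers summed to 5589 and 5678 CPM in the Control livers, 9720 and 8277 with IFNa and 9690 in the combination, and Ly6c2 among them stood at 1108 and 1197, 5992 and 5754, and 7247 CPM. With gates set without Ly6c2, an analysis added after the data were seen, Trem2 and Fn1 were still called. Neutrophil markers summed to 981 and 822, 316 and 241, and 237 CPM. The 14 hepatocyte markers summed to 226 and 340, 195 and 131, and 63.5 CPM, of which Trf, also made by macrophages, held 221 and 266, 156 and 113, and 58.5. Of 16 genes induced by tissue dissociation, Btg2 rose with IFNa (0.62), and in the combination Dnajb1 rose (0.66) and Nr4a1 fell (-1.05). The part of these in the differences was not tested.

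**Figure D2:**
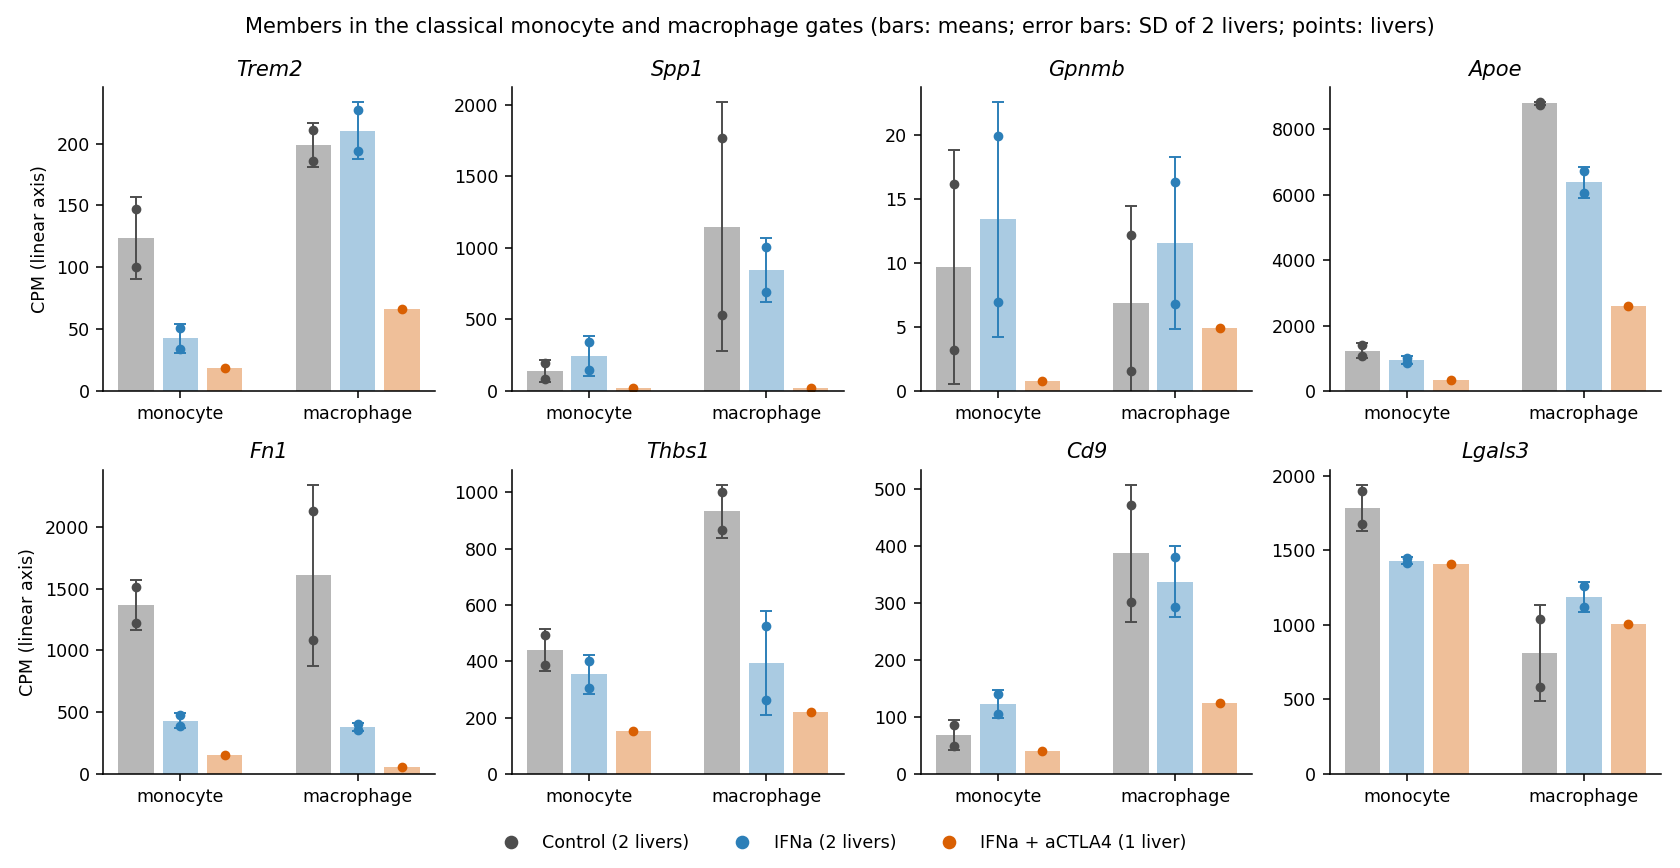
CPM (linear axes from 0) of each gene in the classical monocyte and macrophage gates. Bars are group means, error bars the SD of 2 livers and points single livers. Fn1 falls in both gates from Control to IFNa to the combination, whereas Trem2 in macrophages is near 200 CPM in all 4 Control and IFNa livers and 65.9 in the combination.

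In the macrophage gate the matrix genes Fn1 and Thbs1 fell with IFNa, 2 of the 8, against 0.953% of 11023 tested genes called lower, and Trem2 did not pass. Fn1 was 1086 and 2127 CPM in livers 11 and 25 (Control), 404 and 354 in livers 18 and 23 (IFNa) and 57.5 in the combination. The groups did not overlap. Fn1 fell by 2.15 ± 0.28 with IFNa (edgeR adjusted p = 0.00325), 4.43-fold. Without IFNa 23, where 0 genes in all passed edgeR, it was -2.05 (edgeR adjusted p = 0.455).

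Thbs1, which encodes a matrix protein that activates TGF-beta and binds CD36 and CD47, was 867 and 999.7 CPM in the Control livers, 524 and 262 with IFNa and 219 in the combination. Each IFNa liver lay below both Control livers. Thbs1 fell by 1.33 ± 0.28 (edgeR adjusted p = 0.0385), 2.51-fold. The call was lost in 5 of 14 alternatives, among them DESeq2 (adjusted p = 0.144), without Control 11 (-1.43, edgeR adjusted p = 0.0839) and without IFNa 23 (-0.90, edgeR adjusted p = 0.469). Without IFNa 18 the fall was larger (-1.92). Of the 16 dissociation genes, Egr1 (-0.97), Fosb (-0.96) and Nr4a1 (-0.84) also fell in this comparison. Classical monocyte markers in the macrophage gate summed to 1146 and 1147 CPM in Control but 2302 and 2403 with IFNa. Hepatocyte markers summed to 361 and 406 against 258 and 170 CPM. Neutrophil markers ranged from 332 to 365 against 212 to 310, and platelet markers from 32.3 to 88.1 against 49.1 to 51.6. The part of these in the Fn1 and Thbs1 differences was not tested.

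Trem2 in macrophages was 211 and 186 CPM in the Control livers, 194 and 227 with IFNa and 65.9 in the combination. Control and IFNa overlapped, with a log2 difference of -0.0054 ± 0.16 (edgeR adjusted p = 1). Apoe was 8753 and 8825 against 6720 and 6046 CPM, 2 groups without overlap (-0.54, edgeR adjusted p = 0.162), and DESeq2 called it lower (-0.55). Spp1 was 532 and 1766 against 1003 and 688 (-0.49, edgeR adjusted p = 0.72). Its sign turned to 0.58 without Control 25, and it was called lower without Control 11 (-1.14, edgeR adjusted p = 0.0446). Cd9 was 302 and 472 against 381 and 293 (-0.25, edgeR adjusted p = 0.73), Lgals3 1039 and 583 against 1259 and 1116 (0.46, edgeR adjusted p = 0.487) and Gpnmb 12.2 and 1.54 against 16.4 and 6.84 (0.068, edgeR adjusted p = 1). Of these 3 genes, Lgals3 was higher in both IFNa livers than in both Control livers, and the others overlapped. The median log2 difference was -0.37 over the 8 genes and 0.0043 over all tested genes.

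The IFNa difference was not the same in the 2 gates for 3 genes, by a test of the difference itself (macrophage minus classical monocyte, with the liver as a block, 2 residual degrees of freedom). Of 12421 genes, 2.10% passed that test. The Trem2 difference was higher in macrophages than in monocytes by 1.58 ± 0.19 in log2 (edgeR adjusted p = 0.00123), and it passed in 6 of 6 alternatives. The Thbs1 difference was lower in macrophages by -1.08 ± 0.21 (edgeR adjusted p = 0.0187), which was lost without IFNa 23 (-0.77, edgeR adjusted p = 0.166) and with clusters in place of gates (-1.02, edgeR adjusted p = 0.123). The Lgals3 difference was higher by 0.82 ± 0.18 (edgeR adjusted p = 0.0322). It was lost without Control 25 (0.54, edgeR adjusted p = 0.0947), without the combination (0.81, edgeR adjusted p = 0.0608) and with clusters (0.56, edgeR adjusted p = 0.324). For Fn1 the 2 gates were not shown to differ (-0.43 ± 0.21, edgeR adjusted p = 0.381), nor for Apoe (-0.15 ± 0.16, edgeR adjusted p = 0.744).

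**Figure D3:**
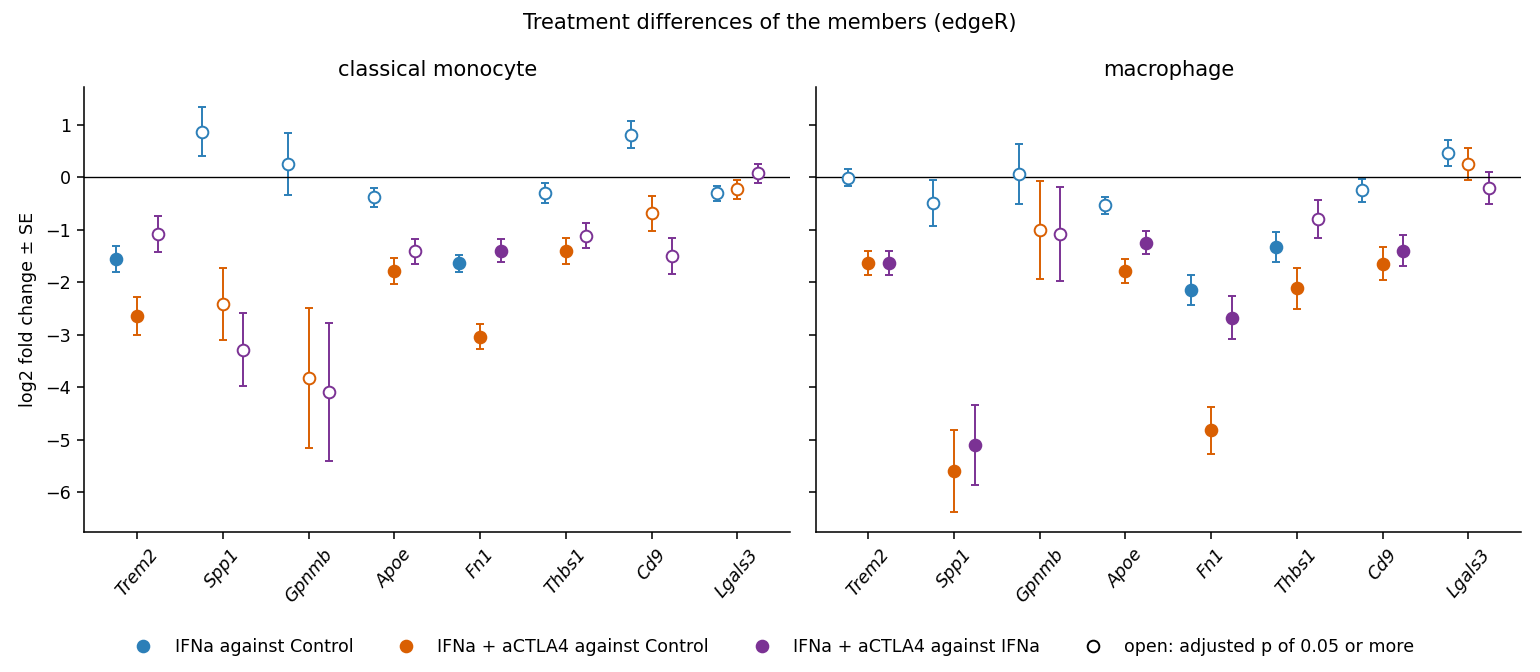
Log2 fold change ± SE of each gene in the classical monocyte gate (left) and the macrophage gate (right) for the 3 comparisons. Filled points passed edgeR at an adjusted p under 0.05 and open points did not. No filled point lies above 0, and Trem2 for IFNa against Control is filled in monocytes and at 0 in macrophages.

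The combination liver had the lowest level of most of these genes in both gates. In its classical monocytes 4 of the 8 genes were lower than in Control (Trem2, Apoe, Fn1 and Thbs1), against 3.38% of 12263 tested genes called lower, and the median log2 difference was -2.10 over the 8 genes and -0.020 over all tested genes. Trem2 fell by 2.64 ± 0.35 (edgeR adjusted p = 0.00305) and Fn1 by 3.04 ± 0.24 (edgeR adjusted p = 0.000289). Apoe, at 329 CPM in the combination, fell by 1.79 ± 0.24 (edgeR adjusted p = 0.0033). Thbs1, at 153 CPM, fell by 1.41 ± 0.25 (edgeR adjusted p = 0.0106), which was not called without Control 11 (-1.21, edgeR adjusted p = 0.054). For each of these 4 genes the combination liver lay below the other 4 livers.

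Galectin-3 stood apart from that pattern. Lgals3 in classical monocytes of the combination was 1404 CPM, beside 1412 and 1444 with IFNa and 1894 and 1674 in Control (-0.23, edgeR adjusted p = 0.451). Spp1, at 23.4 CPM, was below the other 4 livers and did not pass (-2.41, edgeR adjusted p = 0.0623), and Cd9, at 40.3 CPM, did not pass either (-0.69, edgeR adjusted p = 0.247). Gpnmb gave 4 UMIs in the monocytes of the combination, too few to measure a difference well (-3.83, edgeR adjusted p = 0.113, and called in 3 of 13 alternatives). DESeq2 called the same 4 genes as edgeR in this comparison.

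The combination against IFNa, which asks what the antibody added, called only Fn1 lower in classical monocytes (-1.40 ± 0.22, edgeR adjusted p = 0.0486), against 0.0815% of tested genes. That call is at the threshold and was lost in 5 of 13 alternatives, including without Control 11 (-1.39) and without Control 25 (-1.40). Neither liver is part of the comparison, but each enters the filter on low counts, the scaling and the shared estimate of spread. Apoe (-1.41, edgeR adjusted p = 0.0573) and Thbs1 (-1.11, edgeR adjusted p = 0.115) did not pass in edgeR, while DESeq2 called 4 genes lower: Apoe, Fn1, Thbs1 and Cd9. The 3 comparisons share livers, so their differences are not independent of each other.

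In macrophages of the combination 6 of the 8 genes were lower than in Control (Trem2, Spp1, Apoe, Fn1, Thbs1 and Cd9), against 1.96% of 11023 tested genes, and 5 of the 8 were lower than in IFNa, against 0.762%. Osteopontin showed the largest difference of the 8 in these gates: Spp1 was 23.8 CPM, from 34 UMIs, against 532 and 1766 in Control and 1003 and 688 in IFNa. Spp1 fell by 5.59 ± 0.78 against Control (edgeR adjusted p = 0.0028) and by 5.10 ± 0.77 against IFNa (edgeR adjusted p = 0.01). A Spp1 UMI was found in 9.52% of the macrophages of the combination and in 33.4% to 51.1% in the other 4 livers. Thinned to 2000 UMIs the shares were 3.57% against 19.7% to 30.4%. The fold depended on the Control liver used: the log2 difference was -6.23 without Control 11 and -4.52 without Control 25. With gates set without Ly6c2 it was -4.11, and with clusters -4.12, and in both of these Fn1 differed more (-4.45 and -5.45).

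Fn1 in the macrophages of the combination was 57.5 CPM, lower by 4.82 ± 0.45 than in Control (edgeR adjusted p = 0.000312) and by 2.68 ± 0.41 than in IFNa (edgeR adjusted p = 0.0109). Trem2, at 65.9 CPM, fell by 1.64 ± 0.23 against Control (edgeR adjusted p = 0.00256) and by 1.63 ± 0.22 against IFNa (edgeR adjusted p = 0.00706). Apoe, at 2605 CPM, fell by 1.79 ± 0.22 (edgeR adjusted p = 0.00145) and by 1.25 ± 0.22 (edgeR adjusted p = 0.0188). Cd9, at 124 CPM, fell by 1.64 ± 0.31 (edgeR adjusted p = 0.0129) and by 1.40 ± 0.30 (edgeR adjusted p = 0.0482). Thbs1, at 219 CPM, fell by 2.12 ± 0.39 against Control (edgeR adjusted p = 0.0117) and did not pass against IFNa (-0.79, edgeR adjusted p = 0.426). For each of these genes the combination liver was below the other 4 livers. Lgals3, at 1002 CPM, lay within the range of the others (0.26, edgeR adjusted p = 0.733), and Gpnmb gave 7 UMIs (-1.01, edgeR adjusted p = 0.644). The median log2 difference from Control was -1.71 over the 8 genes and -0.0086 over all tested genes.

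Without IFNa 23, the liver with the most macrophages, all 6 calls against Control were lost while their differences stayed between -1.63 and -5.60 (edgeR adjusted p = 0.0513 to 0.149), and the 5 calls against IFNa were lost too. With clusters in place of gates the Trem2 (-0.95), Apoe (-0.77) and Cd9 (-1.21) differences from IFNa did not pass, and without IFNa 18 those of Apoe (-1.16) and Cd9 (-1.18) did not pass. The Cd9 call against IFNa was lost in 6 of 13 alternatives in all. T cell markers summed to 362 CPM in the macrophage gate of the combination and to 38.7 to 137 in the other livers, and 9.52% of its cells carried a T cell receptor contig, against 1.35% to 2.13%. Without such cells, an analysis added after the data were seen, Trem2 was lower than Control by -1.56, Spp1 by -6.00, Apoe by -1.75, Fn1 by -4.64, Thbs1 by -1.94 and Cd9 by -1.56, and each passed, while Cd9 no longer passed against IFNa (-1.26, edgeR adjusted p = 0.109). In the macrophage gate of the combination, markers of natural killer cells or ILC1 summed to 299 CPM against 12.99 to 90.7 elsewhere. Those of B cells summed to 149 against 9.23 to 66.2, and those of hepatocytes to 86.2 against 170 to 406. Platelet markers summed to 17.5 CPM there, against 32.3 to 88.1 in Control and 49.1 to 51.6 with IFNa. Neutrophil markers summed to 205 CPM, against 332 to 365 and 212 to 310. Kupffer markers summed to 147 CPM, against 32.3 to 34.1 and 13.8 to 123. Classical monocyte markers summed to 3591 CPM in this gate against 1147 to 2403, and the dissociation genes Nr4a1 (-1.61), Egr1 (-1.44) and Atf3 (-0.93) fell against Control. The part of these in the differences was not tested.

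The combination effect differed between the 2 gates for Spp1 and Fn1, with 1.31% of 12421 genes passing that test. The Spp1 difference from Control was lower in macrophages than in monocytes by -3.01 ± 0.67 (edgeR adjusted p = 0.039), which was lost with clusters (-3.71, edgeR adjusted p = 0.147). The Fn1 difference was lower by -1.69 ± 0.30 (edgeR adjusted p = 0.0136), a call that held in 5 of 5 alternatives. The Trem2 difference was 1.05 ± 0.29 higher in macrophages and did not pass (edgeR adjusted p = 0.119). It passed in 3 of 5 alternatives: without IFNa 18 (1.02, edgeR adjusted p = 0.0454), without Control 25 (1.21, edgeR adjusted p = 0.0114) and with clusters (1.62, edgeR adjusted p = 0.0291).

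Beyond these 2 gates, changes of the 8 genes were few. In cDC2, where 5 of the 8 passed the filter on low counts, Fn1 and Cd9 were lower in IFNa than in Control, against 0.508% of 8665 tested genes called lower. Fn1 gave 24 and 14 UMIs in the Control livers, 2 and 2 with IFNa and 4 in the combination. The summed UMIs of Control were 11.2-fold those of IFNa at equal depth (exact 95% interval 4.05 to 43.3, counting error only; edgeR log2 difference -3.51, adjusted p = 0.0243). The Control UMIs of Fn1 lay in 13 of 105 and 4 of 28 cells, while the interval treats each UMI as independent. Cd9 was 106 and 121 CPM in the Control livers, 70.7 and 47.7 with IFNa and 42.0 in the combination. It fell by 0.99 ± 0.23 with IFNa (edgeR adjusted p = 0.0289) and by 1.38 ± 0.32 in the combination (edgeR adjusted p = 0.0226), where 0.981% of genes were called lower, and 0.0808% were called in the combination against IFNa. DESeq2 called none of these, and without IFNa 23 neither gene passed for IFNa against Control. Macrophage markers summed to 31.1 and 7.84 CPM in this gate in Control, 9.75 and 2.61 with IFNa and 2.80 in the combination, and their part in the Fn1 difference was not tested.

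In B cells Apoe was 516 and 336 CPM in the Control livers, 252 and 293 with IFNa and 439 in the combination, and 37.2% to 51.2% of B cells had an Apoe UMI. In T cells that share was 3.95% to 7.13%. Of the 7 genes tested in B cells only Fn1 in the combination against Control passed, where 0.323% of 11468 genes were called lower. Fn1 gave 40 and 28 UMIs in the Control livers, 35 and 29 with IFNa and 3 in the combination. The depth of the gate differed between livers, and in CPM these were 12.03 and 30.99, 5.57 and 8.28, and 0.499. Both IFNa livers thus lay below both Control livers, without passing the test, and the combination was lowest. The Control to combination ratio was 32.2 (exact 95% interval 10.6 to 160, counting error only; edgeR adjusted p = 0.0262), and the call was lost without cells carrying a T cell receptor contig and with clusters. That interval treats each UMI as independent, while the Control UMIs lay in 18 of 787 and 4 of 151 B cells. In the B cell gate macrophage markers summed to 26.5 and 32.1 CPM in the Control livers, 8.43 and 10.3 with IFNa and 14.97 in the combination. T cell markers there summed to 61.7 CPM in the combination against 9.92 to 32.1, and the part of either in the Fn1 difference was not tested. No gene of the 8 passed for IFNa against Control in B cells (0.235% of genes called lower) or for the combination against IFNa (0%, or 0 genes), where 4 and 3 of the 7 had an unadjusted p under 0.05 and DESeq2 called 0 of the 8.

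None of the 8 genes passed edgeR in neutrophils, T cells, natural killer cells or ILC1, and epithelial cells, and DESeq2 called 0 of them there. The share of genes called in either direction was 0.152% in neutrophils (IFNa against Control alone, since the combination had 14 neutrophils). It was 0.555%, 1.16% and 0.333% in T cells for IFNa against Control, the combination against Control and the combination against IFNa, and 0.883%, 1.14% and 0.235% in natural killer cells or ILC1. In epithelial cells it was 0% in each, where 569, 1165 and 1112 genes had an unadjusted p under 0.05 and DESeq2 called 1, 21 and 10 genes. Of the 8 genes, 3, 3 and 1 had an unadjusted p under 0.05 in epithelial cells, 3, 2 and 0 in T cells, 0, 1 and 1 in natural killer cells or ILC1, and 1 in neutrophils. Cd9 in epithelial cells stood at 761 and 732 CPM in the Control livers, 773 and 526 with IFNa and 602 in the combination, and Spp1 there at 298 and 297, 184 and 118, and 107. For Spp1 both IFNa livers and the combination lay below both Control livers, without passing the test.

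Non-classical monocytes were described without a test. Trem2 there was 120 and 72.5 CPM in the Control livers, 28.9 and 55.6 with IFNa and 24.3 in the combination, and Fn1 was 241 and 278, 39.5 and 68.6, and 13.1. For both genes the IFNa livers and the combination lay below the Control livers, as in classical monocytes. Neutrophils carried Cd9 at 1494 and 1127, 2135 and 1279, and 3598 CPM, and Gpnmb at 72.3 and 0, 154 and 158, and 0 CPM. Those Gpnmb UMIs came from 7 of 250 neutrophils in Control 11, 5 of 125 in IFNa 18 and 1 of 31 in IFNa 23. The neutrophil gates of Control 25, IFNa 23 and the combination held 29, 31 and 14 cells, which limits what their values can show.

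The cells that held most of a gene's UMIs were not the same in each liver, and these shares reflect the number of cells in a gate as well as the level in them. Classical monocytes held 68.7% and 60.9% of all Trem2 UMIs in the Control livers, 35.7% and 16.7% with IFNa and 33.0% in the combination. Macrophages held 19.4% and 23.9%, 45.0% and 64.3%, and 31.0%. The larger holder of Trem2 was thus the monocyte gate in both Control livers and the macrophage gate in both IFNa livers. Macrophages held 45.4% and 50.1% of Apoe UMIs in the Control livers, 46.3% and 67.6% with IFNa and 33.3% in the combination, and B cells held 23.7% of them in the combination against 1.74% to 4.35% elsewhere.

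For Fn1 the monocyte gate was first in each liver, with 71.5% and 67.1% in the Control livers, 65.9% and 46.3% with IFNa and 71.1% in the combination. Thbs1 followed the same order at 57.7% and 51.4%, 56.2% and 41.4%, and 51.5%. Monocytes held 67.0% and 64.7%, 52.4% and 31.8%, and 35.1% of Lgals3 UMIs. Epithelial cells held 28.4% and 38.8% of Cd9 UMIs in Control and 4.05% in the combination.

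In the combination liver, where T cells made up 43.9% of the cells, T cells held more UMIs of Spp1, Gpnmb and Cd9 than classical monocytes or macrophages did. Its T cells held 65.0% of the Spp1 UMIs (1018 of 1567), and its macrophages held 2.17%. For Gpnmb the T cells held 36.3% of 102 UMIs, and for Cd9 29.9% of 3062, against 3.92% and 7.09% in monocytes and 6.86% and 5.78% in macrophages. In the other livers T cells held 0% to 4.19% of Spp1 UMIs and macrophages 22.8% to 46.1%. Cells left ungated held 33.2% of Spp1 UMIs in Control 11, more than its macrophages. In Control 25, IFNa 18 and IFNa 23 they held 8.84% to 15.2%. The level of Spp1 in T cells did not set the combination apart: it was 35.0 and 0 CPM in the Control livers, 48.3 and 44.3 with IFNa and 38.0 in the combination. An Spp1 UMI was found in 5.07% of T cells of the combination (exact 95% interval 4.40% to 5.81%) and in 0.253% of its B cells. In the 4 livers with any Spp1 UMI in T cells, 2.49% to 5.11% of these cells had one. The 5% of T cells with the most Spp1 therefore had to hold nearly all of it (99.8% to 100%).

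**Figure D4:**
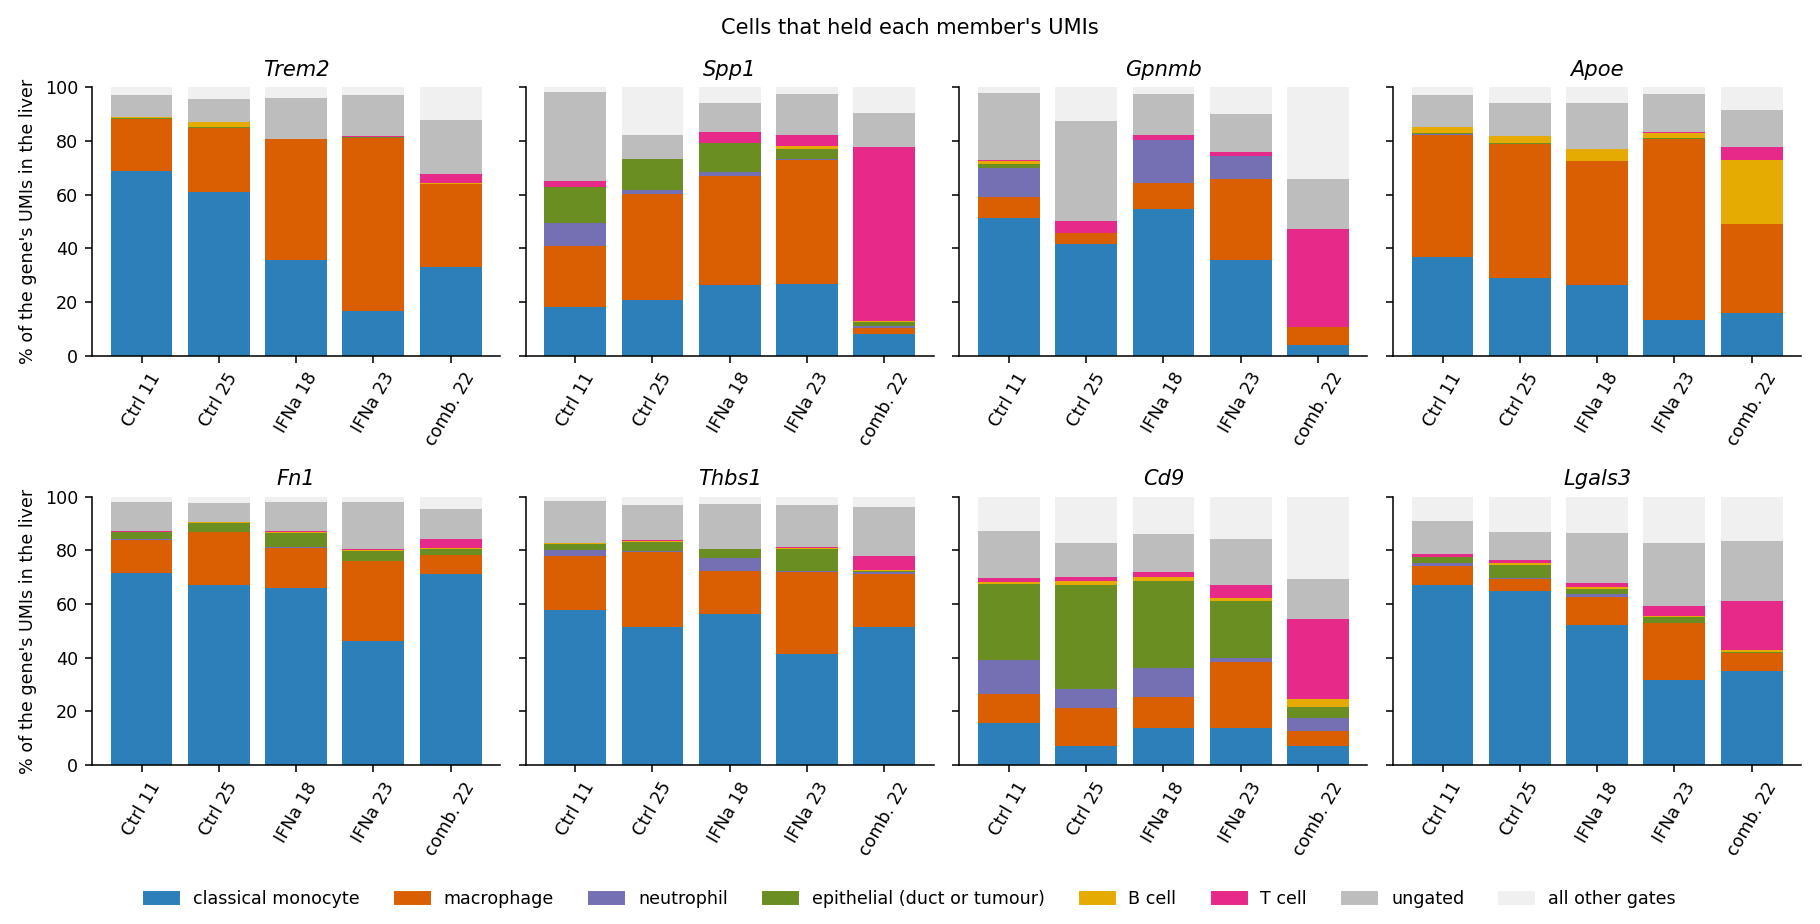
Share of each gene's UMIs, in percent of its UMIs in a liver, by the gated class that held them, with 1 bar for each of the 5 livers. The monocyte share of Trem2 is above the macrophage share in both Control livers and below it in both IFNa livers, and in the combination T cells hold 65.0% of Spp1.

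Within a gate the 8 genes were spread over cells in unlike ways. In classical monocytes the 5% of cells with the most UMIs of a gene held 92.0% to 100% of Spp1 and 13.8% to 17.7% of Lgals3. Trem2 lay between, at 21.6% and 24.6% in the Control livers, 50.1% and 45.8% with IFNa and 66.0% in the combination. In macrophages those shares were 67.7% to 85.3% for Spp1 and 15.7% to 32.3% for Apoe. Spp1 was thus held by few cells in both gates, and Lgals3 in monocytes by nearly all, since 91.2% to 100% of them had an Lgals3 UMI. Such top shares rise where fewer cells have a UMI of the gene, as for Trem2 in the IFNa and combination monocytes. They do not by themselves show a separate group of cells.

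Pairs of the 8 genes were compared for detection in the same cell, thinned to 2000 UMIs, as the ratio of cells with both to the product of the 2 shares. In classical monocytes Spp1 and Cd9 occurred together 2.50 to 5.28 times as often as that product over the 3 livers where the pair was frequent enough to measure, and Thbs1 and Cd9 1.45 to 2.19 times over 5. Trem2 and Apoe ranged from 1.03 to 1.93 in monocytes. In macrophages Spp1 and Fn1 stood at 1.38 to 1.70 and Spp1 and Cd9 at 1.18 to 1.73 over 4 livers, while Trem2 and Thbs1 ranged from 0.65 to 1.17. Of the pairs measured in 5 livers, 5 of 13 in monocytes and 3 of 11 in macrophages were above 1 in each liver and 0 were below 1 in each. These ratios are a description, and cells that differ in depth or state raise them for any pair.

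Across 50 sums of a class in a liver (15 classes, 5 livers, at least 50 cells), the levels of the 8 genes as log2(CPM + 1) were most alike for Trem2 and Apoe (Pearson r = 0.88), Fn1 and Thbs1 (0.87) and Trem2 and Fn1 (0.84), and least alike for Apoe and Cd9 (0.09). Sums of 1 liver share a library, so these are descriptions without a test. Among 6951 other genes, those most like Trem2 included Itgb5 (0.91) and Msr1 (0.91), and those most like Apoe included Apoc2 (0.88) and Msr1 (0.84). Fn1 was most like Mgst1 (0.85), Itgb5 (0.84) and the gate marker Chil3 (0.84), and Thbs1 most like Cd14 (0.89), C5ar1 (0.88) and Rhob (0.86). Lgals3 was most like Card9 (0.93), Ifitm2 (0.92) and Rab32 (0.92). Spp1 had the weakest partners, Vegfa (0.67), Egln3 (0.67) and Pgm1 (0.65), and Gpnmb (Ero1l 0.79, Clec4d 0.79, Cpeb2 0.78) and Cd9 (Pdlim7 0.80, Errfi1 0.79, Cdc34 0.78) lay between.

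Genes that act with the 8 were read from lists of the same pathways. Each list count stands against the shares of all tested genes. In monocytes 6.30% were called higher and 3.77% lower for IFNa against Control, 7.98% and 3.38% for the combination against Control, and 0.432% and 0.0815% for the combination against IFNa. In macrophages these were 2.03% and 0.953%, 3.97% and 1.96%, and 1.58% and 0.762%. Of the 8 genes of the TREM2 receptor complex and its signalling, 0 passed edgeR in either gate for any of the 3 comparisons, where 0 to 2 had an unadjusted p under 0.05 and DESeq2 called 0. Tyrobp, the adaptor without which TREM2 does not signal, stood at 3076 and 2692 CPM in Control monocytes, 2880 and 2992 with IFNa and 3001 in the combination. Its log2 difference with IFNa was 0.042 in monocytes (edgeR adjusted p = 0.894) and 0.075 in macrophages (edgeR adjusted p = 0.933), and no change of the adaptor was detected where Trem2 fell. The list medians were 0.061 and 0.14 in monocytes for IFNa and the combination against Control, and 0.060 and 0.046 in macrophages.

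Of 24 genes of lipid uptake, storage and efflux tested in monocytes, 5 rose and 0 fell with IFNa, where 6.30% of all tested genes rose, and the list median was 0.22. They were Nr1h3, the oxysterol receptor LXR-alpha (1.48 ± 0.27, edgeR adjusted p = 0.0151), Pparg, a lipid-sensing nuclear receptor (1.00 ± 0.20), the scavenger receptor Msr1 (0.74 ± 0.12), the lipid droplet protein Plin2 (0.74 ± 0.17) and the lysosomal cholesterol carrier Npc2. In the combination against Control 3 of the 24 rose (Nr1h3 1.37, Plin2 1.00 and Npc2) and 3 fell: the apolipoprotein genes Apoc1 (-1.94) and Apoc2 (-1.41), which lie in a cluster with Apoe, and the receptor Lrp1. In that comparison 7.98% of all tested genes rose, and the list median was -0.036. Apoc1 was also the 1 gene of this list that edgeR called lower than in IFNa (-1.50), where DESeq2 called Lrp1 and Pparg lower as well. DESeq2 called neither Pparg with IFNa nor Apoc2 in the combination against Control. Apoc2 stood at 369 and 210 CPM in Control monocytes, 302 and 283 with IFNa and 102 in the combination.

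In macrophages 23 genes of that list were tested, and the list medians were 0.027 with IFNa and -0.27 in the combination against Control. With IFNa 2 rose, where 2.03% of all tested genes did: Ch25h, which makes 25-hydroxycholesterol and is itself an interferon-induced gene (3.20 ± 0.70, edgeR adjusted p = 0.0433), and Nr1h3 (1.08 ± 0.17). In the combination against Control 2 rose (Nr1h3 1.15 and Npc2), where 3.97% of all tested genes did, and 4 fell: Pparg (-2.40 ± 0.36, edgeR adjusted p = 0.00418), Lrp1, a receptor of APOE (-1.58), Apoc2 (-1.24) and lipoprotein lipase, Lpl (-1.17, edgeR adjusted p = 0.0118). Lpl was 86.8 and 84.6 CPM in Control macrophages, 73.4 and 71.2 with IFNa and 39.3 in the combination. It did not pass for IFNa against Control in either gate (0.53 and -0.33). In macrophages DESeq2 called neither Lpl in the combination against Control nor Ch25h with IFNa. Against IFNa 4 genes fell in the combination: Pparg (-2.78), Lrp1 (-1.14), Apoc2 (-1.09) and Acp5 (-0.98).

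Of 20 other genes known from lipid-associated macrophages, 4 rose and 0 fell in monocytes with IFNa (6.30% of all tested genes rose): Axl, a receptor for dying cells that type I interferon induces (2.90 ± 0.15, edgeR adjusted p = 0.000125), the integrin Itgax (2.05 ± 0.31), and the cathepsins Ctsb (0.84) and Ctsz (0.69). Axl stood at 32.6 and 39.2 CPM in Control monocytes, 244 and 275 with IFNa and 228 in the combination, groups without overlap between Control and the rest. In the combination against Control 3 rose (Axl 2.80, Hvcn1 1.58 and Ctsz 0.93). DESeq2 called Ctsb and Itgax higher there too, but not Hvcn1. The list medians were 0.28 and -0.022. In macrophages 0 of the 20 passed edgeR with IFNa, where 11 had an unadjusted p under 0.05 and DESeq2 called Ctsb and Ctsz higher. In the combination 3 fell against Control, the tetraspanin Cd63 (-2.38 ± 0.27, edgeR adjusted p = 0.000767), Csf1 (-2.24) and Vat1 (-1.41), and Hvcn1 rose (1.20). Against IFNa, Cd63 (-2.04) and Itgax (-0.88) fell. For the combination in macrophages DESeq2 called only Cd63 and Csf1 of this list against Control, and only Cd63 against IFNa. The list medians against Control were -0.049 with IFNa and -0.22 in the combination. Cd63 was 159 and 198 CPM in Control macrophages, 160 and 134 with IFNa and 34.4 in the combination, the lowest of the 5 livers.

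Other matrix genes moved in both directions. Of 22 tested in monocytes, 5 rose with IFNa (6.30% of all tested genes), among them urokinase, Plau (2.66 ± 0.50, edgeR adjusted p = 0.0165), the membrane protease Mmp14 (2.01 ± 0.31), Fgl2 and Vegfa. The 1 that fell was the neutrophil collagenase Mmp8 (-2.51 ± 0.23, edgeR adjusted p = 0.000832). Mmp8 moved in the same direction as the neutrophil marker sum given for this gate. In the combination against Control 2 rose (Mmp14 2.44 and Fgl2 2.37) and 2 fell (Mmp8 -2.48 and Emilin2 -0.83). In macrophages 2 rose with IFNa, Plau (1.95 ± 0.18, edgeR adjusted p = 0.000588) and Fgl2 (1.22 ± 0.25), while Fn1 and Thbs1 of the 8 fell. In the combination 1 rose and 2 fell against Control (Fgl2 2.36, Emilin2 -1.54, Ecm1 -0.80), though DESeq2 did not call Ecm1 there. Plau (-2.37) and Ecm1 (-1.29) were lower in the combination than in IFNa. The list medians were 0.42 and -0.19 in monocytes for IFNa and the combination against Control, and -0.12 and -0.67 in macrophages.

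Among 15 receptors that bind osteopontin, fibronectin or thrombospondin or pair with such receptors, 4 rose and 0 fell in monocytes with IFNa (6.30% of all tested genes rose): Sdc3 (2.05 ± 0.19, edgeR adjusted p = 0.000777), Itga9 (1.80), Itga5 (0.67) and Itgav (0.54). In the combination against Control 4 rose, Sdc3 (2.06), Cd82 (1.15), Itga5 and Cd47, and Itgb5 fell (-1.67). Itgb5, which pairs with Itgav, was also lower than in IFNa in monocytes (-2.07, edgeR adjusted p = 0.0373) and in macrophages (-1.45, edgeR adjusted p = 0.00764). In macrophages Itga5 alone rose with IFNa (0.73), and in the combination Itgb3 (2.86) and Cd82 (1.06) rose and Itgb5 (-1.70) and Cd81 (-1.09) fell against Control. DESeq2 called 0 of the receptors higher in macrophages in either comparison. Cd44 and Itgb1 did not pass with IFNa: the log2 differences were -0.23 and 0.061 in monocytes and -0.59 and -0.087 in macrophages. The list medians were 0.33 and 0.29 in monocytes and -0.16 and -0.048 in macrophages.

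**Figure D5:**
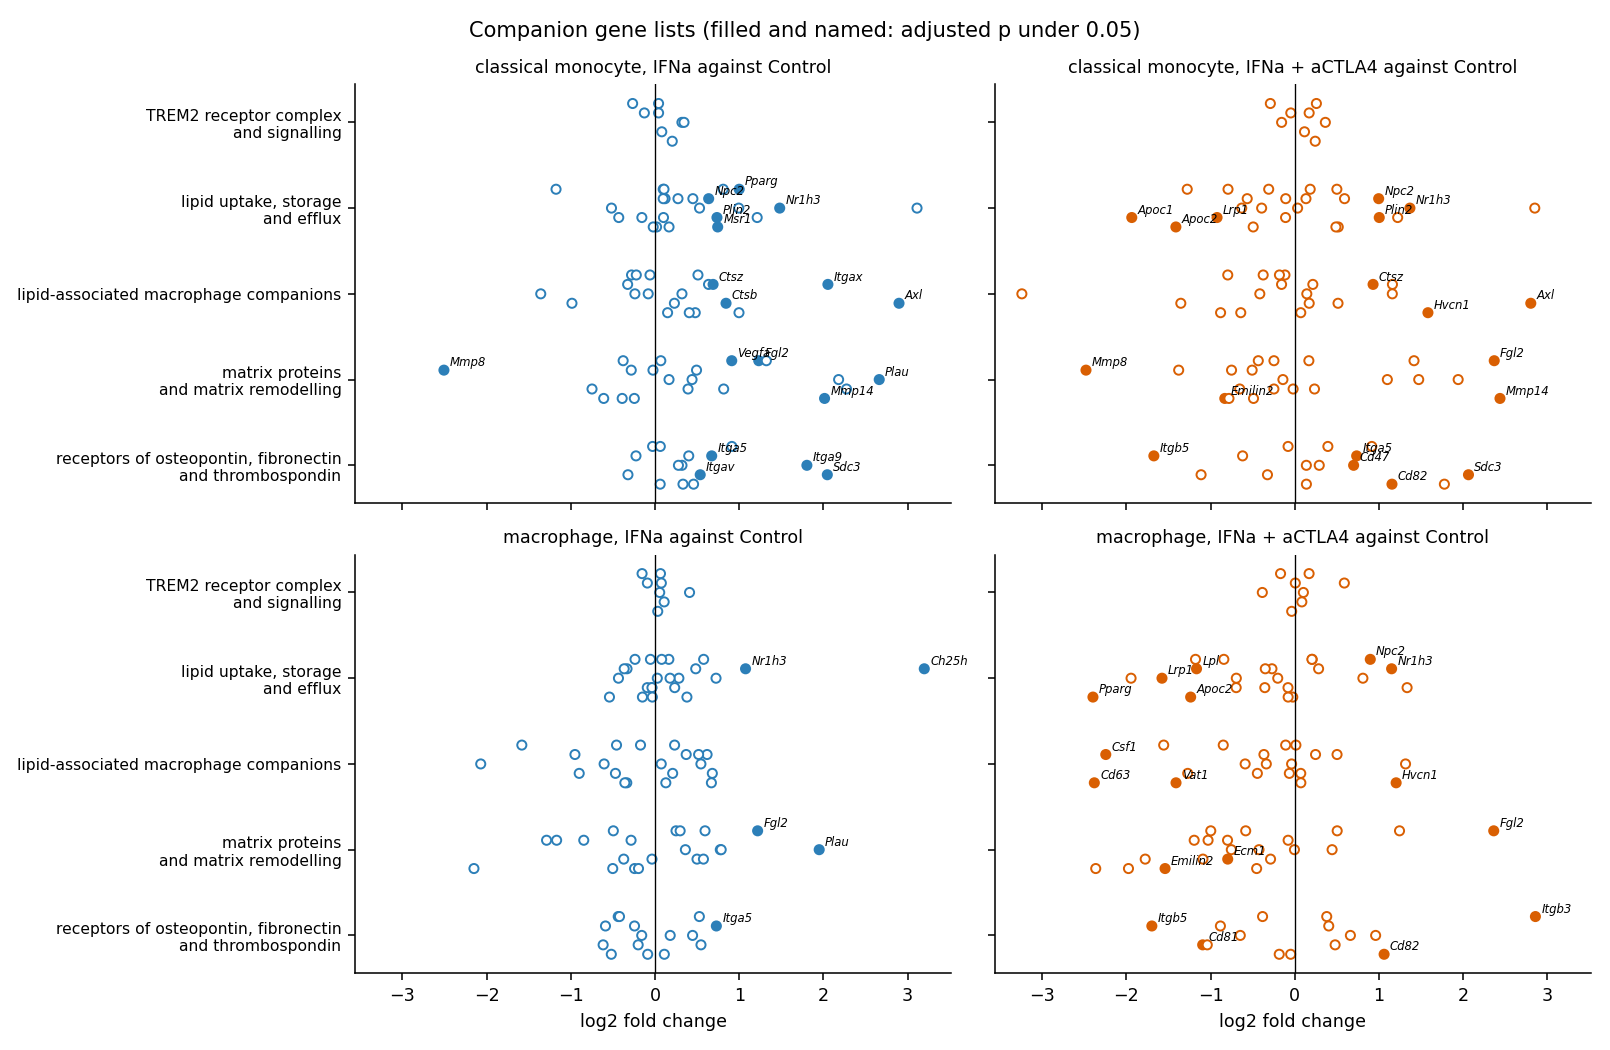
Log2 fold change of tested genes of 5 companion lists in classical monocytes (top) and macrophages (bottom), for IFNa against Control (left) and the combination against Control (right). Filled, named points passed edgeR at an adjusted p under 0.05. In monocytes with IFNa the filled points lie above 0 except Mmp8, and no gene of the TREM2 list is filled.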

How the data were processed

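Single-cell gene expression was measured in 5 livers, and T cell receptor contigs of the same cells were used only to mark cells. Per the submitters' processing notes, the authors made the deposited count matrices (unnormalised UMIs of each gene in each barcode) with Cell Ranger 7.0.1 and build mm10. The deposited contig tables give read and UMI counts per contig. The 8 genes and all lists were chosen with earlier results of these data known.

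Barcodes under 200 genes or above 15% mitochondrial UMIs were dropped, which left 27771 of 28039, and 1555 were removed as doublets by their scrublet-type score (scanpy 1.11.5), at 0.8% per 1000 barcodes. Pairs of libraries shared 4 to 83 barcode sequences. A cell took the class of its best marker list, at a score of at least 0.3 and a margin of 0.05, thresholds set after the data were seen; 4392 cells stayed ungated. Of gated monocytes 76.7%, and of gated macrophages 85.7%, lay in clusters of that name.

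UMI counts were summed per class and liver, so cells were not replicates, passed through filterByExpr and TMM scaling, and compared by the quasi-likelihood test of edgeR 4.0.16, with 3 groups in 1 fit and Benjamini-Hochberg adjustment per class over all genes (threshold 0.05). SE was derived from the fold change and the F statistic. Alternatives were DESeq2 1.42.0, its size factors, no filter, clusters, a stricter margin, doublets kept, at most 10% mitochondrial UMIs and each liver left out. Named list genes were the up to 4 called genes of largest change per list and comparison, plus Tyrobp, Cd44, Itgb1 and Lpl; others named to complete a count were chosen after their values were seen. The list gene Clec7a was not measured here. Some genes that met these rules are not reported or drawn here. Intervals are exact (Clopper-Pearson, 95%), and intervals cover counting error only. The scripts were tested on simulated data.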

Additional observations from a re-analysis of the deposited data

Results flagged for a closer look

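For 5 values, the treatment difference itself differed between the macrophage and the classical monocyte gate (macrophage minus monocyte, log2, edgeR with the liver as a block). With IFNa against Control these were Trem2 (1.58), Thbs1 (-1.08) and Lgals3 (0.82). With the combination against Control they were Spp1 (-3.01) and Fn1 (-1.69). The Control livers are shared by both comparisons, and the combination values rest on 1 liver.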

How the results depend on the processing

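Across alternatives, 618 of 727 values of single genes kept their direction and side of the threshold, 38 lost a call, 49 gained one and 22 changed sign. Without a filter on low counts the genes of the 8 called were 4 and 7 in monocytes for IFNa and the combination against Control and 7 for the combination against IFNa, and all genes called were 2229, 2338 and 709. In macrophages all genes called then were 726, 1159 and 667, and in the other classes the genes of the 8 called were 12, 9 and 3. Under DESeq2 the combination against IFNa called 4 of the 8 and 173 genes in monocytes and 145 genes in macrophages, the combination against Control called 425 genes in macrophages, and the other classes had 0 (IFNa) and 1 (combination) against Control. With doublets kept, the combination against IFNa called 0 of the 8 and 31 genes in monocytes, and the other classes had 4 against Control and 3 against IFNa. With gates without Ly6c2, it called 0 of the 8 and 20 genes in monocytes, and IFNa against Control called 1 in macrophages and 1 in the other classes. With clusters, the combination against IFNa called 98 genes in monocytes, and 2 of the 8 and 81 genes in macrophages, IFNa against Control called 1 in macrophages and 1 difference between gates, and the combination against Control 2 such differences. A stricter margin left 1 in the other classes with IFNa, and removal of cells with a T cell receptor contig left 1 there in the combination. The gates without Ly6c2 and the removal of contig cells were chosen after seeing the data.

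Leaving out each liver in turn, the number of the 8 called in monocytes ran from 1 to 4 (IFNa against Control), 3 to 7 (combination against Control) and 0 to 7 (combination against IFNa), with 287 to 1741, 590 to 2316 and 24 to 516 genes in all. In macrophages it ran from 0 to 3, 0 to 6 and 0 to 5, with 0 to 416, 85 to 872 and 1 to 489 genes. In the other classes it ran from 3 to 6, 2 to 6 and 0 to 3, and for differences between gates from 2 to 5 (IFNa) and 2 to 4 (combination). The lowest monocyte counts came without Control 11 and the lowest macrophage counts without IFNa 23. The cause was not tested.

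The 22 sign changes were of values not called in the reported analysis. With IFNa they were Gpnmb in monocytes (-0.25 without Control 25, -0.69 without IFNa 18), Trem2 in macrophages (0.014 without a filter, 0.11 without Control 11, 0.093 without IFNa 18, 0.0051 with a stricter margin), and Spp1 (0.58) and Cd9 (0.072) without Control 25. Gpnmb in macrophages turned to -0.30 without Control 25, -0.51 without IFNa 18, -0.24 with a stricter margin, -0.047 with doublets kept, -0.050 without Ly6c2 and -0.74 with clusters. In the combination, Gpnmb turned to 1.62 without Control 11 and Lgals3 to -0.094 without Control 25. Differences between gates turned for Gpnmb with clusters (-1.19 and -0.52) and for Apoe with IFNa (0.072 without IFNa 23, 0.067 without Control 25, 0.13 with clusters) and in the combination (-0.19 without Control 11). Of 32 levels 1 moved beyond the spread between livers. No paired analysis was possible because the groups share no replicate number. Over single livers left out, those values ran from -0.69 to 2.11 for Gpnmb in monocytes and, in macrophages, from -0.11 to 0.11 for Trem2, -1.14 to 0.58 for Spp1, -0.51 to 2.67 for Gpnmb and -0.56 to 0.072 for Cd9 with IFNa, and from -1.35 to 1.62 for Gpnmb and -0.094 to 0.76 for Lgals3 in the combination. For the Apoe difference between gates they ran from -0.37 to 0.072 with IFNa and from -0.19 to 0.24 in the combination. With 2, 2 and 1 livers, 47 macrophages in Control 25 and under 50 Gpnmb UMIs per liver in the macrophage gate, depth limits Gpnmb and the combination most, and a gene that did not pass is not shown to be unchanged.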
